A study of Mus musculus with 7 samples.

Results

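The molecular chaperones of the HSP70, HSP90, DnaJ, CCT and BAG families, with HSP60 and HSP10, were examined in tibialis anterior (TA) muscle with and without fast myosin-binding protein C (fMyBP-C). The members were chosen by symbol, as the measured genes named Hspa, *Hspd1*, *Hspe1*, *Hsph1*, Hsp90, Dnaja, Dnajb, Dnajc, Cct or Bag followed by their number. This gave 69 of the 12239 genes in the deposited table. There were 14 genes of the HSP70 and HSP110 family, 2 of mitochondrial HSP60 and HSP10, 3 of HSP90, 37 DnaJ genes (4 DNAJA, 9 DNAJB and 24 DNAJC), 7 CCT genes and 6 BAG genes. The TA, a shin muscle made up mainly of fast-twitch fibres, was taken from male mice of the FVBN background aged 5 to 6 months. WT animals were compared with C2-/- animals, in which a Neo cassette between LoxP sites stands in place of exons 2 to 22 of *Mybpc2*, the gene of fMyBP-C, a constitutive allele that is not limited to muscle. There were 4 WT and 3 C2-/- libraries of poly(A) RNA, while the series' design text gives 4 animals in each group and the methods text begins the age range earlier. Because whole muscle was used, fewer cells of a type and less RNA per cell cannot be told apart.

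Chaperones bind unfolded or partly folded proteins and help them to fold, to assemble or to be degraded. HSP70 proteins hold short hydrophobic stretches in cycles of ATP binding and hydrolysis, DnaJ proteins deliver the substrate and start the hydrolysis, and HSP110 and BAG proteins exchange the nucleotide so that the substrate is released. HSP90 acts late on kinases, receptors and, with UNC45B, on myosin, whereas the chaperonins HSP60 (with its lid HSP10) and CCT fold proteins inside a closed chamber. In striated muscle, CCT folds actin, and BAG3 with HSP70 clears damaged filament proteins from the Z-disc. Heat shock factors bind repeated GAA and TTC units in promoters of cytosolic and mitochondrial chaperone genes, while the unfolded protein response acts through ER stress elements in the promoters of chaperones of the endoplasmic reticulum (ER).

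Values are log2 CPM (counts per 1000000 reads after TMM scaling, the deposited unit), and changes are C2-/- minus WT. A gene was called higher or lower when its limma adjusted p over all 12239 genes was under 0.05 and its fold change above 1.5 (0.585 on the log2 scale). Each library bore the *Mybpc2* level of its label, with 25665 to 110159 reads in WT and 3 to 8 in C2-/-. The libraries held 2613277 to 15464499 reads. WT replicates 1 to 3 were the deepest (14929214 to 15464499), whereas WT replicate 4 (4683853) was as shallow as the C2-/- libraries (2613277 to 4917936), so depth and genotype can be told apart only through WT replicate 4. The change of a gene also followed the GC content of its transcript, with Spearman's rho of -0.68 over the 12180 genes with a GC value. A fit on values corrected for GC content in each library (GC-corrected below) is therefore given beside each called chaperone gene whose call it ended or whose change it moved by more than 1.5-fold, and for the lists of other genes as counts with the genes concerned. Whether GC content or depth contributed to a difference was not tested.

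The chaperone genes took a larger share of the reads in C2-/- TA, with a mixed composition. Read shares were not GC-corrected, and median GC content was 47.6% in the chaperone genes and 50.2% over all genes. A share also depends on the reads of all other genes. Their reads made up 0.711% to 0.755% of each WT library, WT replicate 4 included, and 0.906% to 1.0% of each C2-/- library. Of the 69 genes, 22 were higher (31.9%), 10 were lower (14.5%) and 37 did not pass. Over all genes tested, 20.2% were higher and 25.0% lower. The median log2 change of the chaperone genes was 0.34, compared with -0.14 over all genes. All C2-/- values lay above all WT values in 25 chaperone genes and below them in 11, where the share over all genes was 22.6% and 26.7%. The plot of changes by family shows genes called in both directions within the HSP70, DNAJB, DNAJC and BAG families. Changes of both signs, called or not, occurred in every family.

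**Figure D1:**
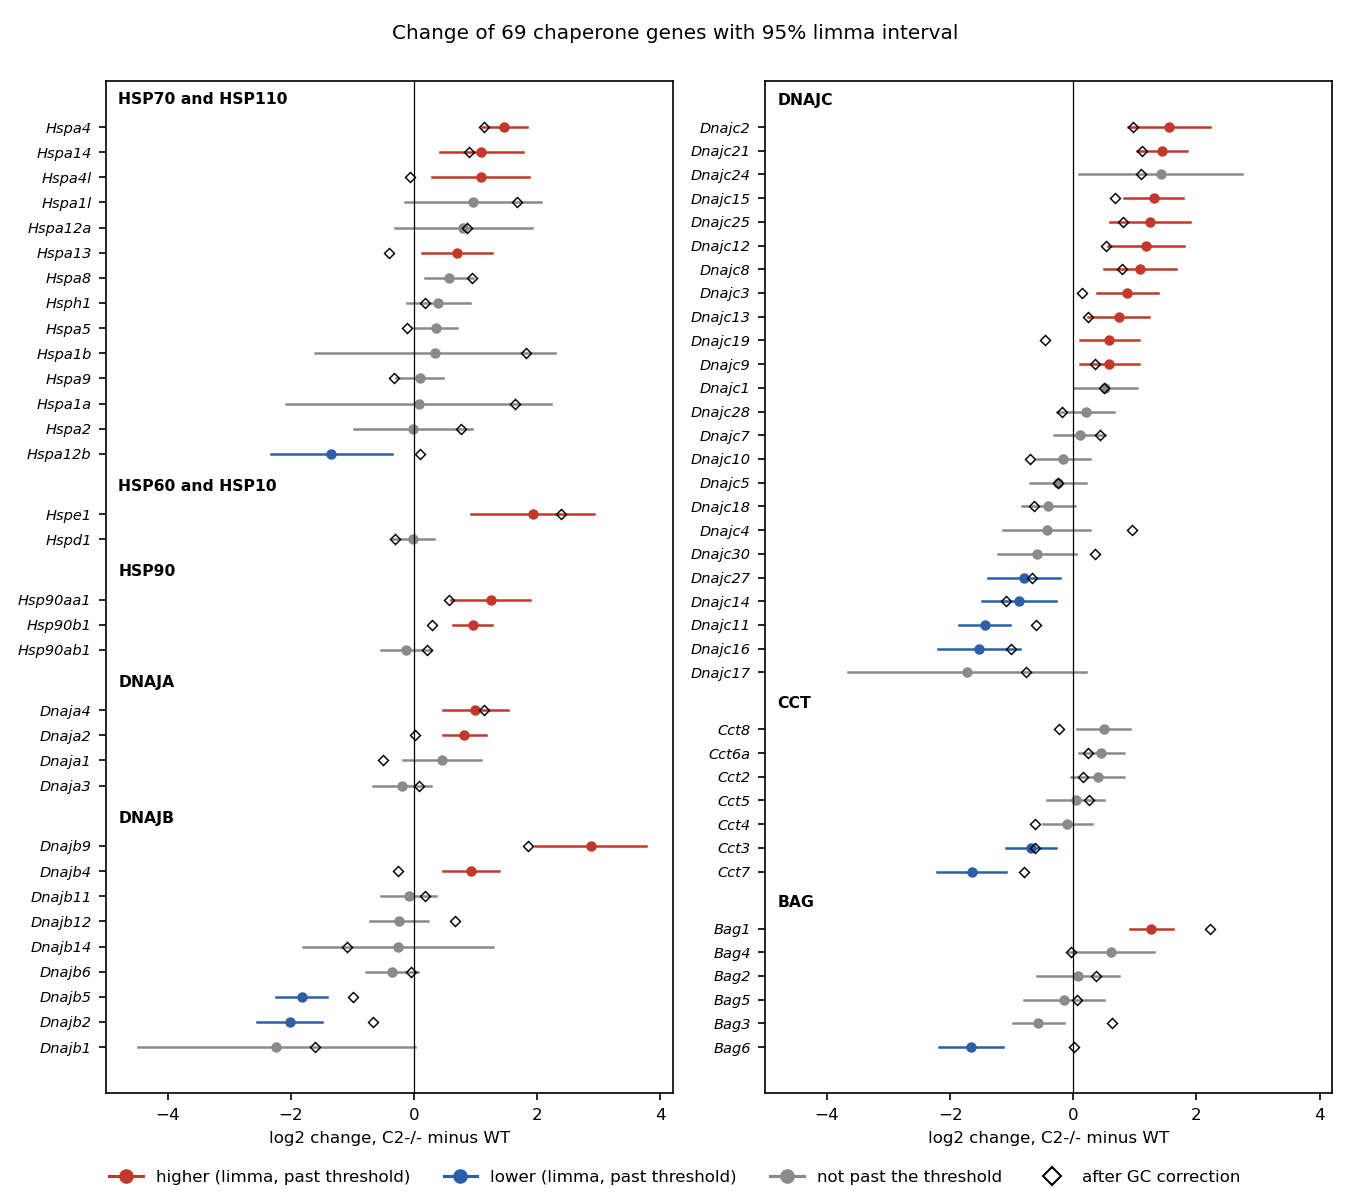
Log2 change (C2-/- minus WT, n = 3 and 4 libraries) of the 69 chaperone genes by family, with points for the estimate, bars for its 95% limma interval, colour for the call and open diamonds for the GC-corrected change. The points run from -2.24 (Dnajb1, with a bar that reaches 0) to 2.87 (Dnajb9), and the diamonds of Bag6 and Dnaja2 both lie at 0.01.

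The GC content of the transcripts differed between the called sets. Its median was 44.4% in the 22 higher genes, 53.9% in the 10 lower genes and 50.2% in the other 37, and over the 69 genes Spearman's rho between change and GC content was -0.58 (Pearson's r -0.59, genes are not independent). After the GC correction 11 chaperone genes were higher and 8 lower, while over all genes 12.3% were higher and 8.33% lower, and the median change was 0.18 compared with 0.02. The 13 genes called in the same direction in both fits were *Hspa4*, *Hspe1*, *Dnaja4*, *Dnajb9*, *Dnajc2*, *Dnajc15*, *Dnajc21* and *Bag1*, which were higher, and *Dnajb5*, *Dnajc14*, *Dnajc16*, *Cct3* and *Cct7*, which were lower. A further 6 genes passed only after the correction, of which *Hspa8*, *Hspa1l* and *Dnajb12* were higher and *Cct4*, *Dnajc10* and *Dnajc18* lower. The plot of change against GC content shows *Hspe1* and *Bag1* as the called higher genes above 50% GC.

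**Figure D2:**
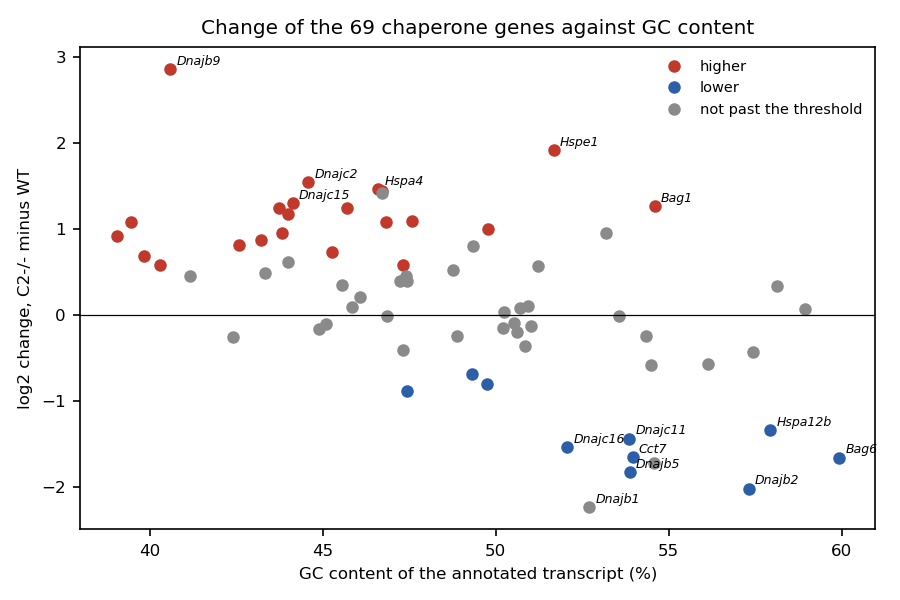
Log2 change (C2-/- minus WT) of each of the 69 chaperone genes against the GC content of its annotated transcript in percent, coloured by call. The higher genes lie between 39.0% and 54.6% GC and the lower genes between 47.4% and 59.9%.

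Because of its depth, WT replicate 4 was compared separately. All 32 called genes differed in the called direction between the C2-/- mean and WT replicate 4 alone. In 8 of them the value of WT replicate 4 was closer to the C2-/- mean than to that of WT replicates 1 to 3, and in 3 (*Dnajc13*, *Dnajc19* and *Dnajc27*) it lay within the C2-/- range. Of the 32 called genes, 24 passed in all 7 fits in which a single library was omitted (leave-one-out). The other 8 kept their direction in these fits. *Hspa12b* (changes from -1.62 to -0.79), *Hspa4l* (0.77 to 1.30) and *Dnajc14* (-1.08 to -0.67) passed in 3 of the 7, *Hspa13* (0.53 to 0.84), *Dnajc13* (0.65 to 0.90), *Dnajc19* (0.40 to 0.73) and *Dnajc27* (-1.04 to -0.68) in 2, and *Dnajc9* (0.52 to 0.64) in 0. Omitting WT replicate 1, 2 or 3 ended the call of each of these 8 genes. In addition, omitting C2-/- replicate 1 ended those of *Hspa13* and *Dnajc27*, C2-/- replicate 2 those of *Hspa4l*, *Hspa12b*, *Hspa13*, *Dnajc13* and *Dnajc19*, and C2-/- replicate 3 those of *Dnajc13*, *Dnajc14*, *Dnajc19* and *Dnajc27*, while that of *Dnajc9* ended with any library. Conversely, 10 genes that had not been called passed in at least 1 such fit. Without WT replicate 4 these were *Hspa8* (0.69), *Dnaja1* (0.70), *Bag4* (0.82) and *Dnajc24* (1.89), and without WT replicate 2 *Bag3*. Without C2-/- replicate 1 they were *Hspa8*, *Bag3* and *Dnajc24*, without C2-/- replicate 2 *Hsph1* (0.66), *Hspa1l* (1.62), *Cct8* (0.62) and *Bag3* (-0.70), and without C2-/- replicate 3 *Hspa8*, *Dnajb1* (-3.23) and *Dnajc1* (0.70). In the map of all libraries, the intermediate position of WT replicate 4 is seen in *Hspe1*, *Dnajb9* and *Dnajc2*.

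**Figure D3:**
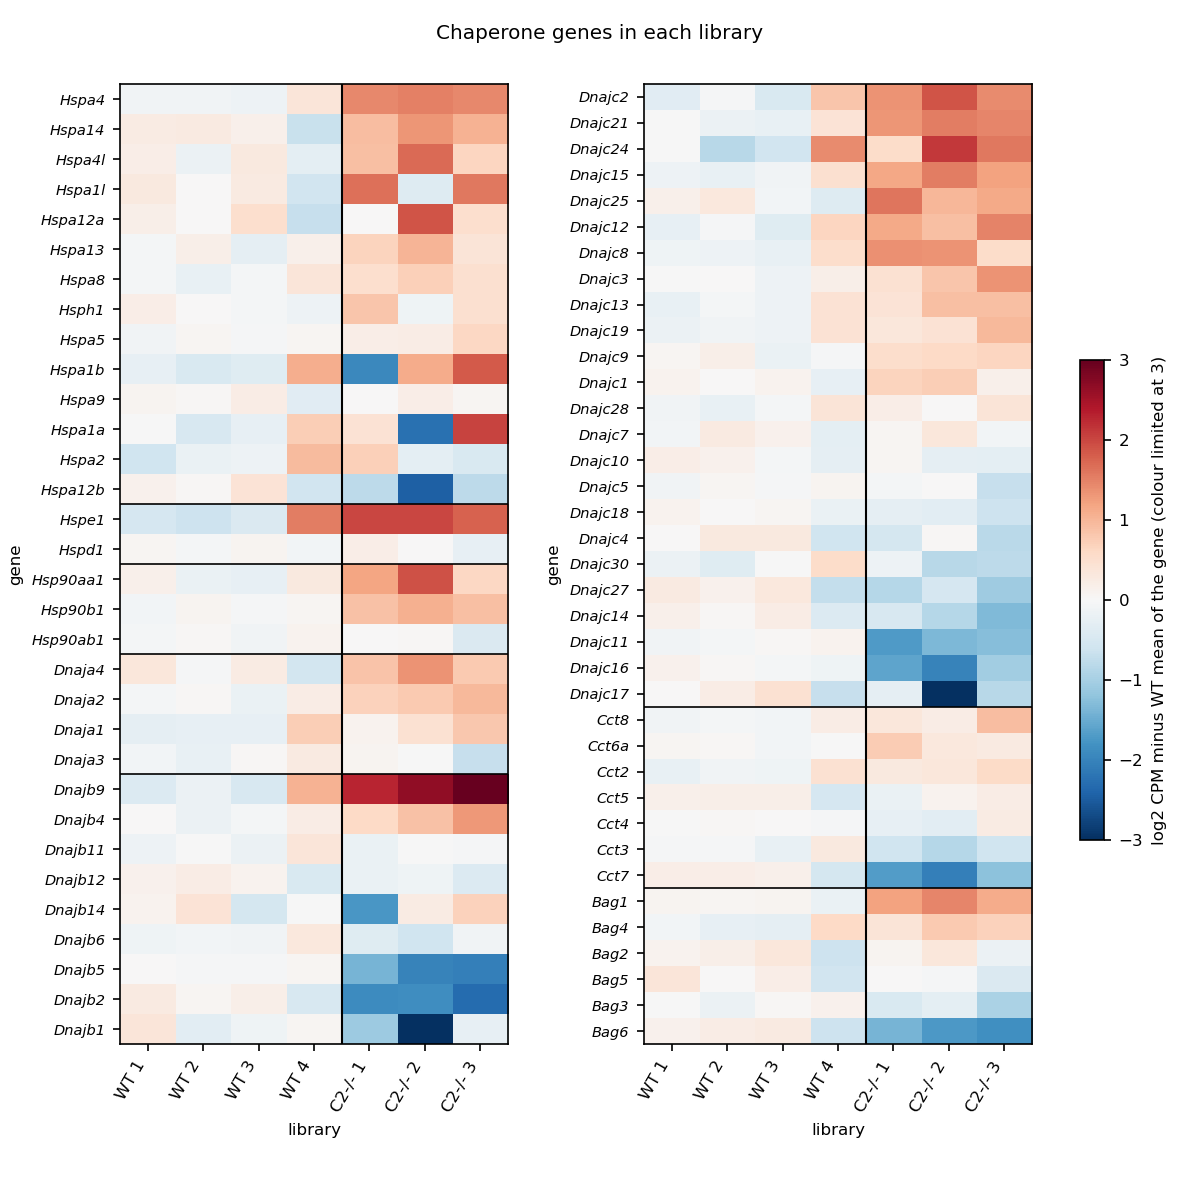
Log2 CPM of the 69 chaperone genes (rows, by family and then by change) in the 7 libraries (columns), as colour relative to the WT mean of each gene, limited at 3 either way. The 3 C2-/- columns are red for Hspa4, Hspe1 and Dnajb9 and blue for Dnajb5, Dnajb2 and Bag6, and for Hspe1 the column of WT replicate 4 is red as well.

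In counted reads, the cytosolic HSP70 genes were dominated by the constitutive form. *Hspa8* (HSC70, on chromosome 9) had, per kilobase of transcript, a WT level of 8.09 on the log2 scale, and the heat-inducible pair *Hspa1a* and *Hspa1b* had -1.74 and -0.50. *Hspa8* stood at 9.30, 9.12, 9.28 and 9.70 in WT replicates 1 to 4 and at 9.85, 10.07 and 9.84 in C2-/- replicates 1 to 3. All C2-/- values were above all WT values, and WT replicate 4 was the highest of the WT libraries. Its change of 0.57 (SE 0.18, limma adjusted p = 0.0237) was just under the fold minimum, and the GC-corrected change was 0.95 (limma adjusted p = 0.0108). Without WT replicate 4 the gene was called higher (0.69, limma adjusted p = 0.00248). Stretches of 50 bases shared with other annotated genes made up 73.2% of the *Hspa8* transcript, the largest share of the 69, so its division of reads with such copies is uncertain. Both inducible genes were at a low counted level. Stretches of 50 bases shared with other genes made up 60% of the *Hspa1a* and 62% of the *Hspa1b* transcript. How reads from such stretches were counted is not given, so the levels and the sum may be too low. The reads of *Hspa1a* and *Hspa1b*, which share most of their sequence, summed to 38, 30, 34 and 24 in WT and 4, 11 and 51 in C2-/-, or 2.00 to 5.46 CPM and 1.38 to 10.6 CPM. The C2-/- libraries lay on both sides of the WT libraries, and neither gene passed. Of the other cytosolic HSP70 genes, *Hspa1l* (0.96) and the testis-enriched *Hspa2* (-0.02) did not pass. *Hspa12a* (0.80), a distant relative of HSP70, did not pass either, and its endothelial paralog *Hspa12b* fell by 1.34 on the log2 scale (SE 0.44, limma adjusted p = 0.0303), with 4.41, 4.30, 4.69 and 3.71 in WT and 3.48, 1.83 and 3.50 in C2-/-. The low value of C2-/- replicate 2 widened the spread of *Hspa12b*, which passed in 3 of the 7 leave-one-out fits, and its GC-corrected change was 0.10. The summed level of 5 endothelial markers was 321 to 448 CPM in WT replicates 1 to 3, 275 CPM in WT replicate 4 and 221 to 287 CPM in C2-/-, with 2 of the 5 lower before and 0 lower after the GC correction by limma (1 at an unadjusted p under 0.05), and its part in the *Hspa12b* values was not tested. Of all genes, 25.0% were lower before the correction and 8.33% after it.

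The HSP110 group, which exchanges nucleotide on HSP70, was higher in 2 of its 3 genes (20.2% over all genes), with 1 of the 2, *Hspa4*, also called after the GC correction. *Hspa4* (Apg2) stood at 7.05, 7.06, 7.0 and 7.51 in WT replicates 1 to 4 and at 8.60, 8.67 and 8.60 in C2-/-. The 3 C2-/- libraries were close together (SD 0.04), and all lay above WT replicate 4, the highest WT library. The change was 1.47 (SE 0.17, 2.76-fold, limma adjusted p = 0.000321) and the GC-corrected change 1.14. The related *Hspa4l* (Apg1) was higher at a lower level, from 2.71 ± 0.28 (SD, n = 4) to 3.79 ± 0.55 (SD, n = 3), and its GC-corrected change was -0.06. *Hsph1* (HSP105), the heat-inducible member, did not pass (6.51, 6.30, 6.25 and 6.14 in WT, 7.14, 6.17 and 6.77 in C2-/-, change 0.40, limma adjusted p = 0.173), with C2-/- replicate 2 among the WT values. *Hspa14*, which sits on ribosomes with *Dnajc2*, rose by 1.09 (SE 0.30, limma adjusted p = 0.0149), with 3.69, 3.72, 3.62 and 2.79 in WT and 4.38, 4.78 and 4.49 in C2-/-. For *Hspa14*, WT replicate 4 was the WT library farthest from C2-/-, and the gene did not pass after the GC correction (0.90).

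Of the 8 partners of HSP70 measured outside these families, 0 were called higher by limma (0 at an unadjusted p under 0.05 and 0 by voom), and 4 were lower, where 20.2% and 25.0% of all genes were (12.3% and 8.33% after the GC correction). These were the ubiquitin ligase gene *Stub1* (CHIP, -1.88), the nucleotide exchange factor genes *Hspbp1* (-3.12) and *Sil1* (-1.05), and *Hyou1* (-1.38), the HSP110 relative of the ER. With GC-corrected values only *Hspbp1* of the 8 was lower (-1.45), while *Stub1* was at -0.13, *Sil1* at 0.04 and *Hyou1* at -0.55. *Hspbp1* had only 9, 3 and 7 reads in C2-/- replicates 1 to 3, so the size of its change is uncertain. The mitochondrial exchange factors *Grpel1* (0.34) and *Grpel2* (-0.36), the co-chaperone *St13* (0.15) and *Tomm34* (-0.42) did not pass.

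Of the 3 HSP90 genes, 2 were higher (20.2% over all genes), and after the GC correction 0 of the 3 were called by limma (0 at an unadjusted p under 0.05), compared with 12.3% higher over all genes. The constitutive *Hsp90ab1* was the most abundant member per kilobase in WT (9.39 on the log2 scale) and did not pass, with 10.67, 10.77, 10.61 and 10.83 in WT and 10.73, 10.77 and 10.28 in C2-/- (change -0.13, 95% interval -0.53 to 0.27, GC-corrected 0.22). The inducible *Hsp90aa1*, which in muscle works with UNC45B on myosin folding, stood at 5.65, 5.31, 5.25 and 5.80 in WT and 6.69, 7.42 and 6.13 in C2-/-. All C2-/- values of *Hsp90aa1* lay above all WT values, with C2-/- replicate 2 the highest. The gene passed with a change of 1.24 (SE 0.29, limma adjusted p = 0.00666), while the GC-corrected change of 0.57 did not pass. Hence the difference *Hsp90aa1* minus *Hsp90ab1* ran from -5.45 to -5.02 over the WT libraries and from -4.15 to -3.34 over the C2-/- libraries. With GC-corrected values the ranges overlapped, at -4.94 to -4.51 and -4.8 to -4.04, and the difference between the group means was 0.35 instead of 1.37. Of the *Hsp90aa1* transcript, 58.5% lay in 50-base stretches that other annotated genes share, so its division of reads is uncertain as well. The ER form *Hsp90b1* (GRP94) rose by 0.95 (SE 0.14, limma adjusted p = 0.000908), from 7.05, 7.20, 7.09 and 7.18 in WT to 8.0, 8.20 and 8.03 in C2-/-. WT replicate 4 lay among the other WT libraries for *Hsp90b1*, and the GC-corrected change was 0.29. These genes and the other main members are shown by library in the plot of 12 genes.

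**Figure D4:**
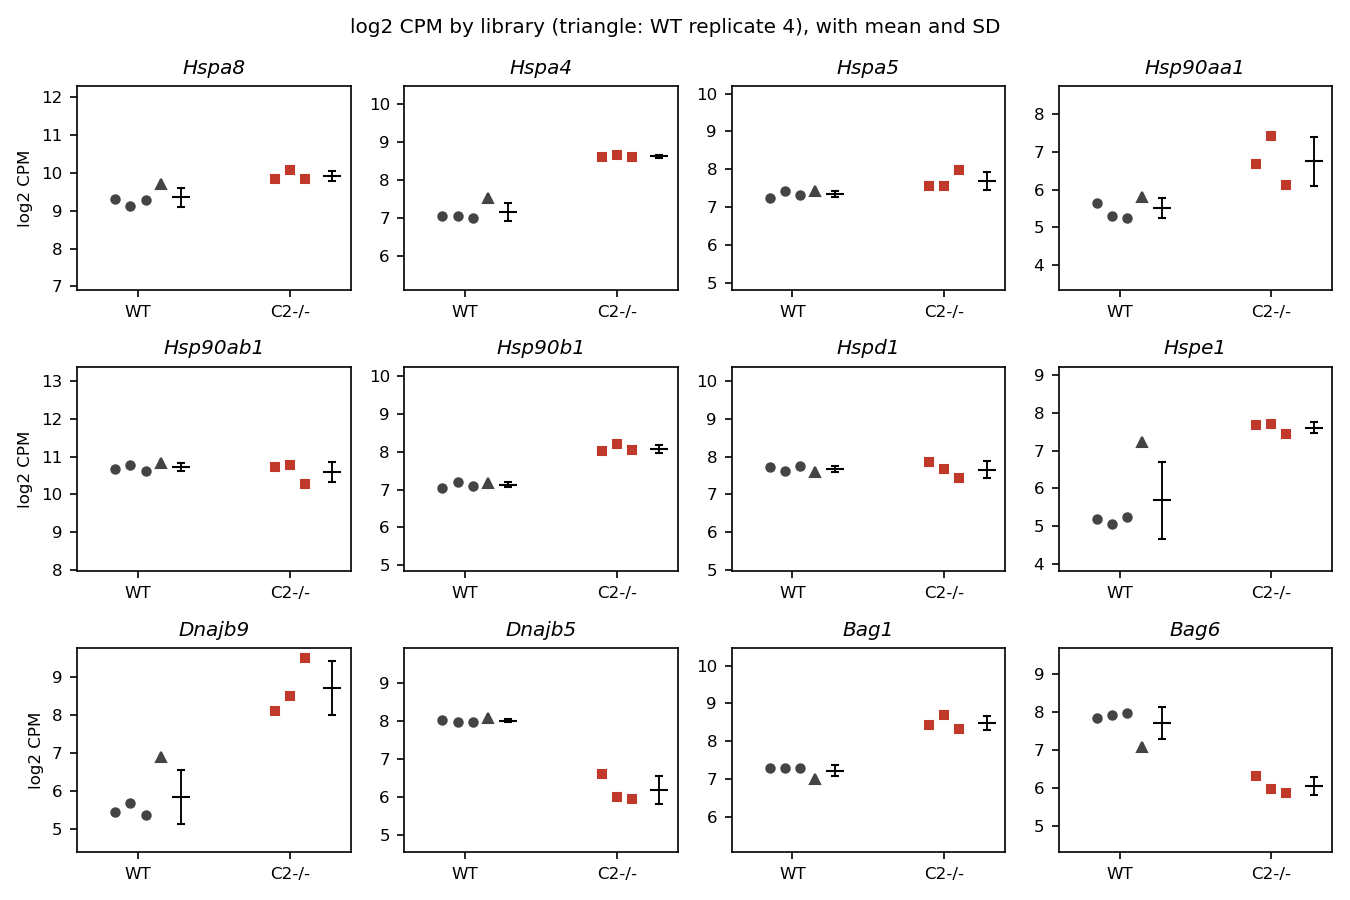
Log2 CPM of 12 chaperone genes in each library, with circles for WT replicates 1 to 3, a triangle for WT replicate 4, squares for C2-/- replicates 1 to 3, and bars for the mean and SD of each group (n = 4 and 3). Each axis spans the same number of log2 units around its own centre, and Hspe1 shows the triangle at 7.21, near the squares at 7.45 to 7.69.

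The wider HSP90 machinery had 4 genes higher, 6 lower and 7 not past the threshold among 17, where the shares over all genes were 20.2% and 25.0%. The myosin chaperone gene *Unc45b* fell by 0.99 on the log2 scale (limma adjusted p = 0.00102), from 8.57, 8.59, 8.63 and 8.34 in WT replicates 1 to 4 to 7.66, 7.37 and 7.60 in C2-/-. No C2-/- library reached the lowest WT library, and the GC-corrected change was -0.08. The myosin methyltransferase gene *Smyd1*, whose product also binds HSP90, did not pass (0.07). The kinase co-chaperone gene *Cdc37* (-1.65) and *Aarsd1* (-2.45), a co-chaperone gene related to p23, were lower, and *Unc45a* (-2.26), the mitochondrial HSP90 gene *Trap1* (-0.99) and the immunophilin gene *Fkbp4* (-1.07) were lower as well. Reads in C2-/- replicates 1 to 3 were few for *Unc45a* (11, 3 and 15) and *Aarsd1* (26, 7 and 29). Higher genes were *Ppid* (0.99), *Sugt1* (0.76), *Chordc1* (0.74) and *Tomm70a* (0.62). With GC-corrected values 0 of the 17 were higher by limma (1 at an unadjusted p under 0.05) and 3 were lower, namely *Cdc37* (-1.41), *Aarsd1* (-1.33) and, with its direction turned, *Chordc1* (-0.78). The corrected shares over all genes were 12.3% higher and 8.33% lower. The other 7 calls ended, with corrected changes from -0.74 for *Unc45a* to 0.08 for *Fkbp4*. The general co-chaperone genes *Stip1* (-0.29), *Ahsa1* (-0.15) and *Ptges3* (0.10) did not pass.

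The mitochondrial chaperonin pair did not move together. *Hspe1* encodes HSP10, the lid of the chamber, and *Hspd1* encodes HSP60, its wall. The genes lie head to head on chromosome 1 (GRCm38.p6), with *Hspd1* on the minus strand (55077833 to 55088243) and *Hspe1* on the plus strand (55088148 to 55091317), so their 5′ ends overlap. Of the 56 chaperone genes with a promoter window in RefSeq (GRCm38.p6, 250 bases before to 50 after the start), these were the only 2 with a run of 4 heat shock units (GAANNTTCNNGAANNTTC or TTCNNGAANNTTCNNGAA, which together cover both strands), a run found in 0.0296% of the 27025 genes with a window. Both matches are the same 18 bases, chr1:55088059-55088076. They lie in the window chr1:55087898-55088197 of *Hspe1* and in that of an inner start of *Hspd1* at 55087932 (chr1:55087883-55088182), but not in the window of the outer *Hspd1* start at 55088243 (chr1:55088194-55088493). The *Hspe1* window is shown, read on the plus strand, because it holds this match, with the GAA and TTC units in capitals. A match describes the letters and is not evidence of binding.
Hspe1: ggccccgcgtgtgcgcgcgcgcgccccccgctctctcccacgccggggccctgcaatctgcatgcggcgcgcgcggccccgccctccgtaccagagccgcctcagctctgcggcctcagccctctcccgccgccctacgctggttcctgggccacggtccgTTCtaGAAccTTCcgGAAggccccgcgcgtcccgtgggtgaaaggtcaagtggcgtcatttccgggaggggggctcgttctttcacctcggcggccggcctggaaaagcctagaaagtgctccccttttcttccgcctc

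*Hspe1* stood at 5.19, 5.07, 5.26 and 7.21 in WT replicates 1 to 4 and at 7.68, 7.69 and 7.45 in C2-/- replicates 1 to 3. WT replicates 1 to 3 were close together, WT replicate 4 stood well above them, and all C2-/- values lay above WT replicate 4. The change of 1.92 passed (SE 0.45, limma adjusted p = 0.00695), with a C2-/- mean 0.39 above WT replicate 4 alone. In contrast, *Hspd1* stood at 7.73, 7.62, 7.75 and 7.59 in WT and 7.87, 7.68 and 7.43 in C2-/-, with overlapping groups and a change of -0.01 (95% interval -0.36 to 0.33). The difference *Hspe1* minus *Hspd1* was -2.55, -2.55, -2.49 and -0.38 in WT and -0.19, 0.01 and 0.01 in C2-/-, so that WT replicate 4 stood with the C2-/- libraries. Its change was 1.94, and 2.69 with GC-corrected values. There WT replicate 4 (-0.51) lay between WT replicates 1 to 3 (all -2.92) and the C2-/- libraries (0.08 to 0.54). Stretches of 50 bases shared with other annotated genes made up 36.1% of the *Hspe1* transcript and 44.8% of *Hspd1*, and the use of strand in counting was not stated. How the reads were divided between these genes, their copies and each other is therefore uncertain.

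Among the 6 other mitochondrial chaperones, the HSP70 gene *Hspa9* (mortalin) did not pass and overlapped between the groups (9.22, 9.16, 9.35 and 8.79 in WT, 9.13, 9.33 and 9.20 in C2-/-, change 0.09, 95% interval -0.29 to 0.47). Its J-protein gene *Dnaja3* (Tid1) did not pass either (-0.20). The import motor genes *Dnajc15* and *Dnajc19* were higher, the former from 5.16, 5.10, 5.21 and 5.79 in WT to 6.49, 6.86 and 6.52 in C2-/- (change 1.31, limma adjusted p = 0.0014, GC-corrected 0.68). For *Dnajc19* the change was 0.59 (limma adjusted p = 0.0454), WT replicate 4 (6.94) exceeded C2-/- replicate 1 (6.87), and the GC-corrected change was -0.47. *Dnajc11*, whose product associates with the complex that organizes mitochondrial cristae, fell by 1.44 on the log2 scale (SE 0.19, limma adjusted p = 0.000539). Its values were 5.88, 5.91, 6.01 and 6.08 in WT and 4.28, 4.62 and 4.70 in C2-/-, without overlap, and the GC-corrected change was -0.61. *Dnajc30* did not pass (-0.59). Of 9 genes of mitochondrial protein quality control (20.2% of all genes were higher and 25.0% lower), 2 were higher, *Clpx* (1.24) and the protease gene *Yme1l1* (1.69), and 3 were lower, *Lonp1* (-0.71), *Htra2* (-1.45) and the import motor gene *Timm44* (-0.72). With GC-corrected values (12.3% of all genes higher and 8.33% lower) *Clpx* was higher (0.67) and 0 of the 9 were lower by limma (0 at an unadjusted p under 0.05), with *Yme1l1* at 0.40, *Lonp1* turned to 0.65, *Htra2* at -0.12 and *Timm44* at -0.17.

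Of 10 ER chaperone genes, 4 were higher and 0 lower by limma (0 lower at an unadjusted p under 0.05 and 0 by voom), where 20.2% of all genes were higher and 25.0% lower. With *Dnajc14* and *Dnajc16*, which also lie in the ER membrane and are described with the class C genes, 4 of 12 were higher and 2 lower. After the GC correction (12.3% of all genes higher and 8.33% lower) 2 of the 10 were higher, *Dnajb9* and *Dnajb12* (0.67), and *Dnajc10* was lower (-0.71). *Dnajb9* (ERdj4), a J-protein induced in ER stress that works with BiP, showed the largest rise of the 69 genes before the GC correction. After it, the changes of *Hspe1* (2.38) and *Bag1* (2.22) were larger. *Dnajb9* stood at 5.45, 5.68, 5.38 and 6.90 in WT replicates 1 to 4 and 8.13, 8.51 and 9.52 in C2-/- replicates 1 to 3. WT replicate 4 lay between the other WT libraries and the C2-/- libraries, and the groups did not overlap. The change was 2.87 (7.29-fold, SE 0.41, limma adjusted p = 0.000749), 1.82 from WT replicate 4 alone and 1.84 after the GC correction (limma adjusted p = 0.00656). *Hspa5* (BiP), the HSP70 of the ER, stood at 7.25, 7.41, 7.32 and 7.42 in WT and 7.56, 7.57 and 7.98 in C2-/-. Although all C2-/- values of *Hspa5* lay above all WT values, its change of 0.35 did not pass (limma adjusted p = 0.0908), and the GC-corrected change was -0.11. The difference *Dnajb9* minus *Hspa5* was thus -1.94 to -0.52 in WT and 0.57 to 1.54 in C2-/-. *Dnajc3* (p58IPK), an ER J-protein that also restrains eIF2alpha kinases, rose by 0.87 (SE 0.22, limma adjusted p = 0.0104), from 5.42, 5.45, 5.28 and 5.62 in WT to 5.90, 6.27 and 6.78 in C2-/-. Its C2-/- values were all above WT, and its GC-corrected change was 0.14. *Hspa13* (Stch) was also higher (0.69, limma adjusted p = 0.047, GC-corrected -0.41), whereas *Dnajb11* (-0.09), *Dnajb12* (-0.24), *Dnajb14* (-0.26), *Dnajc1* (0.52) and the reductase gene *Dnajc10* (-0.16) did not pass.

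The promoters of these ER genes differed in their elements. The canonical ER stress element (CCAAT, then 9 bases of any kind, then CCACG, searched on both strands) was found in 3 of the 56 chaperone genes, *Hsp90b1*, *Hspa5* and *Dnajc3*, compared with 0.137% of all genes with a window. *Hsp90b1* had 2 such elements, 1 on each strand, beginning 212 and 107 bases before the start, that of *Hspa5* began 65 bases before it and that of *Dnajc3* 105 bases before it. *Dnajb9*, which rose most before the GC correction, had no such element in its window. Of the motifs searched, it held only a CCAAT box, a motif found in 41.1% of all genes and in 23 of the 56. The CCACG part alone was not searched for. *Dnajb11* held the variant ER stress element II (ATTGG, 1 base of any kind, then CCACG, both strands), a match in 0.0444% of genes. The windows of the 4 genes are shown 5′ to 3′ on the strand of the gene so that the elements, in capitals, can be set beside the changes of 0.95, 0.35, 0.87 and 2.87 for *Hsp90b1*, *Hspa5*, *Dnajc3* and *Dnajb9*. They are the minus strand of chr10:86705395-86705694 and the plus strand of chr2:34771840-34772139 for *Hsp90b1* and *Hspa5*, and the plus strand of chr14:118937682-118937981 and the minus strand of chr12:44210019-44210318 for *Dnajc3* and *Dnajb9* (RefSeq, GRCm38.p6).
Hsp90b1: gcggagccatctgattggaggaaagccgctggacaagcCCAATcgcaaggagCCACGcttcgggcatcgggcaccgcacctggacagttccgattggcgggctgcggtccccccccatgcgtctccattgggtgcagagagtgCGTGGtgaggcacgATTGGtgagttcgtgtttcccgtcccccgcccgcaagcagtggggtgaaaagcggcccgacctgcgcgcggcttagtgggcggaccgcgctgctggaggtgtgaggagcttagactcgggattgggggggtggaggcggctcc
Hspa5: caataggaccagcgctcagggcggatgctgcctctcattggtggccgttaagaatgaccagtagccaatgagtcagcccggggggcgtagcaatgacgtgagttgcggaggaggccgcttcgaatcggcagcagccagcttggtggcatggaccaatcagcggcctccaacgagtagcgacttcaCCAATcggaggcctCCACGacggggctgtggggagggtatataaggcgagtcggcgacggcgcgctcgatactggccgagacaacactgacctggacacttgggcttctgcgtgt
Dnajc3: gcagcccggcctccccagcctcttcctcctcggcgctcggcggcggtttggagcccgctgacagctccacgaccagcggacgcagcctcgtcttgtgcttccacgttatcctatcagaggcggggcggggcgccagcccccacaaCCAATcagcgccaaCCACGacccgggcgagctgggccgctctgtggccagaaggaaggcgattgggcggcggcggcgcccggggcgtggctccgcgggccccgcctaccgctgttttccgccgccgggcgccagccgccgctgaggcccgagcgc
Dnajb9: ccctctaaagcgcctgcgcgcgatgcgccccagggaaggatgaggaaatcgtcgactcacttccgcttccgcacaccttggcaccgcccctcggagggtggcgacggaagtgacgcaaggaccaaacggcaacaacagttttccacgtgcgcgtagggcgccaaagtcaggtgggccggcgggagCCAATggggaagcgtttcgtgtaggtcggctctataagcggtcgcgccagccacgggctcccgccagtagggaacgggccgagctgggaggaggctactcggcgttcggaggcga

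The calls among other genes of ER folding and the unfolded protein response changed with the GC correction, except for *Pdia6*. Of the 15 listed, 0 were higher by limma (2 at an unadjusted p under 0.05, 1 called by voom) and 2 were lower, the disulfide isomerase genes *Pdia6* (-1.13) and *P4hb* (-0.95), where 20.2% of all genes were higher and 25.0% lower. The transcription factor gene *Xbp1* had C2-/- values wholly above WT (6.03 to 6.55 in WT, 6.67 to 7.05 in C2-/-), with a change of 0.58 just under the fold minimum and a GC-corrected change of 1.27. *Atf4* (-0.19), *Ddit3* (-0.25), *Calr* (-0.01), *Canx* (0.09), *Pdia3* (0.50), *Herpud1* (-0.44) and *Manf* (0.27) did not pass. After the GC correction (12.3% of all genes higher and 8.33% lower) 3 of the 15 were higher, *Xbp1*, *Atf4* (0.69) and *Creld2* (1.31), and 2 were lower, *Pdia6* (-1.13) and *Canx* (-0.76), while *P4hb* was at -0.12 and *Ddit3* at 0.84 without passing. The median change of the list was -0.01 before and 0.21 after the correction, compared with -0.14 and 0.02 over all genes.

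Among the cytosolic class A and class B J-proteins, which bind substrate themselves, the directions were mixed. *Dnaja4*, abundant in striated muscle, rose from 6.72, 6.34, 6.63 and 5.83 in WT to 7.23, 7.72 and 7.18 in C2-/- (change 1.0, SE 0.24, limma adjusted p = 0.00781). Its lowest WT library was replicate 4, no C2-/- library overlapped WT, and the GC-corrected change was 1.13. *Dnaja2* rose by 0.82 (SE 0.16, limma adjusted p = 0.00278), with 7.86, 7.95, 7.74 and 8.16 in WT and 8.63, 8.72 and 8.90 in C2-/-, and was at 0.01 after the GC correction. *Dnaja1* did not pass (change 0.45), with 5.44, 5.46, 5.46 and 6.45 in WT and 5.81, 6.15 and 6.51 in C2-/-, where WT replicate 4 stood above the other WT libraries and within the C2-/- range. In the B class, *Dnajb4* rose by 0.92 (SE 0.20, limma adjusted p = 0.00507), from 5.99, 5.80, 5.94 and 6.22 to 6.58, 6.86 and 7.30. The groups did not overlap, but the GC-corrected change of *Dnajb4* was -0.26, in the other direction and not past the threshold.

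The genes called lower in the B class were *Dnajb2* and *Dnajb5*. *Dnajb5* (HSC40), which in heart muscle takes part in the nuclear transport of class II histone deacetylases, stood at 8.02, 7.97, 7.98 and 8.07 in WT replicates 1 to 4 and at 6.61, 6.0 and 5.95 in C2-/-. The 4 WT libraries were close together (SD 0.04), and all C2-/- libraries lay below them. The change was -1.82 (3.54-fold lower, SE 0.18, limma adjusted p = 0.000265) and -0.99 after the GC correction (limma adjusted p = 0.00373). *Dnajb2*, a neuronal and muscle J-protein with ubiquitin-binding motifs, stood at 6.15, 5.94, 6.06 and 5.41 in WT and 4.0, 4.03 and 3.57 in C2-/-, without overlap. Its change was -2.02 (SE 0.24, limma adjusted p = 0.000393), whereas the GC-corrected change of -0.66 did not pass (limma adjusted p = 0.0657). *Dnajb6*, whose mutations cause a limb-girdle muscular dystrophy, did not pass (6.23, 6.27, 6.24 and 6.67 in WT, 5.98, 5.75 and 6.25 in C2-/-, change -0.36), and 35.8% of its 50-base stretches were shared with other genes. *Dnajb1* (HSP40), the heat-inducible partner of HSP70, had 152, 93, 109 and 35 reads in WT and 10, 0 and 31 in C2-/-. Its C2-/- libraries were scattered, and the change of -2.24 had a 95% interval of -4.48 to 0.01.

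The class C J-proteins, which share only the J domain and serve particular substrates or places, held 10 higher and 4 lower genes among 24 (20.2% and 25.0% over all genes), and 3 higher and 4 lower after the GC correction (12.3% and 8.33%). The ribosome and splicing J-proteins, set beside the same shares, were higher in 3 of 4 before the correction and in 2 of 4 after it. *Dnajc2* (MPP11, zuotin), which positions HSP70 at the ribosomal tunnel exit, stood at 5.36, 5.67, 5.24 and 6.53 in WT and 7.05, 7.58 and 7.11 in C2-/-. WT replicate 4 was the highest WT library and still below every C2-/- library, and the change was 1.55 (SE 0.30, limma adjusted p = 0.00278, GC-corrected 0.97). *Dnajc21*, a factor of large ribosomal subunit maturation, stood at 7.07, 6.89, 6.86 and 7.48 in WT and 8.41, 8.61 and 8.53 in C2-/-, with a change of 1.44 (SE 0.18, limma adjusted p = 0.000454) and 1.12 after the GC correction. The groups were again separate for *Dnajc21*, with an SD of 0.10 over the C2-/- libraries. The splicing factor gene *Dnajc8* rose by 1.09 (limma adjusted p = 0.00798) and did not pass after the GC correction (0.79, limma adjusted p = 0.0552). For *Dnajc8*, C2-/- replicate 3 (6.12) barely exceeded WT replicate 4 (6.10), while *Dnajc17*, another spliceosomal gene, had 0 reads in C2-/- replicate 2 and did not pass (-1.73).

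Of the other class C genes, *Dnajc25* (1.24), *Dnajc12* (1.18, a co-chaperone of aromatic amino acid hydroxylases), the endosomal *Dnajc13* (0.74) and the histone chaperone gene *Dnajc9* (0.59) were higher and did not pass after the GC correction, with corrected changes of 0.80, 0.53, 0.24 and 0.35. For *Dnajc9* the limma adjusted p was 0.0473, and it passed in 0 of the 7 leave-one-out fits. The largest called fall in the class before the GC correction was that of *Dnajc16*, which stood at 4.46, 4.37, 4.28 and 4.21 in WT and 2.75, 2.34 and 3.30 in C2-/- (change -1.54, SE 0.30, limma adjusted p = 0.00294, GC-corrected -1.01). No C2-/- library of *Dnajc16* reached the WT range. *Dnajc14*, an ER-membrane J-protein of receptor transport, was lower (-0.88, limma adjusted p = 0.0223, GC-corrected -1.10). *Dnajc27*, a J-protein with a GTPase domain, was lower as well (-0.81, limma adjusted p = 0.0292) but not after the GC correction (-0.68, limma adjusted p = 0.0828), and the value of WT replicate 4 (5.94) fell between those of C2-/- (5.58 to 6.13). The synaptic vesicle gene *Dnajc5* (-0.25), the HSP70-HSP90 adaptor gene *Dnajc7* (0.10), *Dnajc4* (-0.43), *Dnajc18* (-0.40), *Dnajc24* (1.42) and *Dnajc28* (0.20) did not pass.

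The levels of the CCT subunit genes were more widely spread in C2-/- than in WT. Whether those of other sets of genes were too was not examined. CCT is a double ring of 8 different subunits in equal numbers, 7 of which carry a Cct symbol while the other is encoded by *Tcp1*, analysed here as a partner. Of the 7, 0 were called higher by limma (2 at an unadjusted p under 0.05, 0 called by voom) and 2 were lower, where 20.2% of all genes were higher and 25.0% lower. Once corrected for GC content, 3 of the 7 were lower (8.33% over all genes), *Cct3*, *Cct7* and *Cct4* (-0.62). *Cct7* stood at 6.84, 6.84, 6.79 and 6.10 in WT replicates 1 to 4 and at 4.98, 4.59 and 5.41 in C2-/-. WT replicate 4 was the lowest WT library and still above all C2-/- libraries. Its change was -1.65 (3.14-fold lower, SE 0.25, limma adjusted p = 0.00106), -1.11 from WT replicate 4 alone and -0.80 after the GC correction (limma adjusted p = 0.0282). *Cct3* stood at 6.27, 6.26, 6.09 and 6.59 in WT and 5.69, 5.43 and 5.71 in C2-/-, again without overlap (change -0.69, SE 0.18, limma adjusted p = 0.0119), and with median centring of the libraries its change of -0.53 was under the fold minimum. *Cct6a* (7.15, 7.12, 7.0 and 7.08 in WT, 7.86, 7.41 and 7.36 in C2-/-, change 0.46) and *Cct8* (0.49) had C2-/- values wholly above WT without passing the threshold. *Cct2* (6.74, 6.86, 6.83 and 7.42 in WT, 7.25, 7.30 and 7.54 in C2-/-, change 0.40), *Cct5* (0.04) and *Cct4* (-0.10) overlapped between the groups. *Tcp1* was higher, at 7.61, 7.64, 7.52 and 7.70 in WT and 8.22, 8.27 and 8.51 in C2-/- (change 0.72, limma adjusted p = 0.00339), and the GC-corrected change of 0.49 did not pass.

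**Figure D5:**
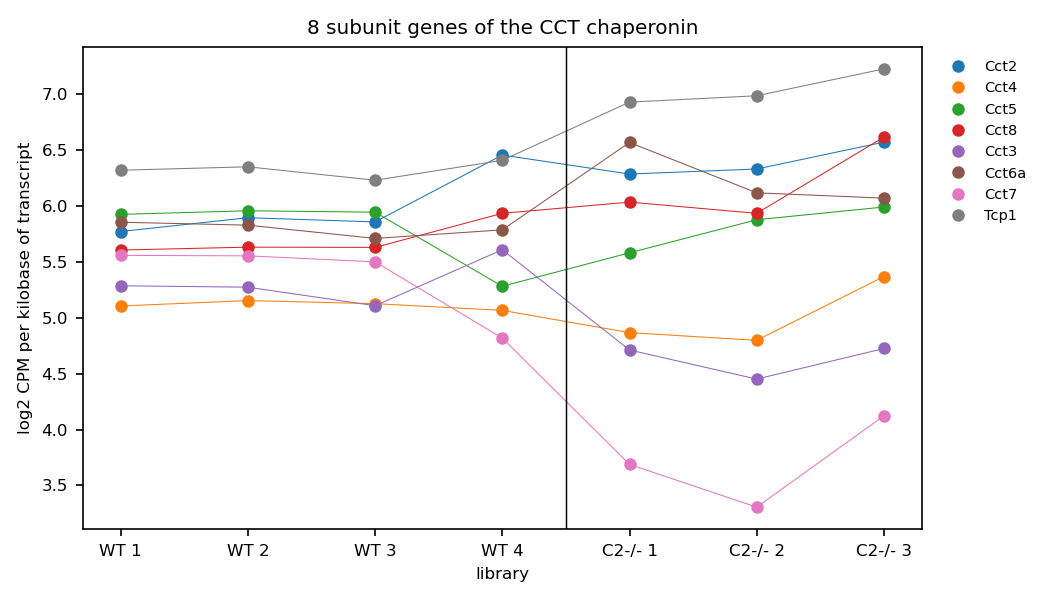
Log2 CPM per kilobase of transcript of the 8 CCT subunit genes (colours) in each of the 7 libraries, where thin lines join the values of a gene for reading only. The values are not GC-corrected, and the SD over subunits is 0.38 to 0.39 for WT replicates 1 to 3, 0.60 for WT replicate 4 and 1.04 to 1.19 for C2-/-, with Tcp1 highest and Cct7 lowest in each C2-/- library.

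Per kilobase of transcript, the 8 subunit genes spanned 1.12 to 1.21 log2 units for WT replicates 1 to 3, 1.64 for WT replicate 4 and 3.10 to 3.68 for C2-/-. With GC-corrected values the span was 1.28 to 1.32, 1.85 and 2.39 to 2.93 in the same order. The changes of the 8 genes ran from -1.65 (*Cct7*) to 0.72 (*Tcp1*), a span of 2.37, and after the GC correction from -0.80 to 0.49, a span of 1.29. The difference *Cct7* minus *Cct8*, for example, ran from -0.10 to -0.02 over WT replicates 1 to 3, was -1.09 for WT replicate 4 and ran from -2.60 to -2.32 over C2-/-. Its change of -2.14 was -0.57 after the GC correction, where the C2-/- libraries (-1.71 to -1.48) still lay below all WT libraries. Of the 7 genes of prefoldin and PDCL3, which hand actin and other substrates to CCT, 3 were higher and 1 lower (20.2% and 25.0% over all genes). *Pfdn4* (1.86), *Vbp1* (1.61) and *Pdcl3* (1.38) were higher, *Pfdn6* (-0.99) was lower, and *Pfdn1*, *Pfdn2* and *Pfdn5* did not pass. After the GC correction (12.3% of all genes higher and 8.33% lower) 0 of the 8 partner genes of CCT were called by limma in either direction (2 higher and 1 lower at an unadjusted p under 0.05).

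The BAG genes included a rise and a fall of similar size. *Bag1*, an exchange factor that also links HSP70 to the proteasome, stood at 7.29, 7.28, 7.29 and 7.01 in WT replicates 1 to 4 and 8.44, 8.70 and 8.33 in C2-/- replicates 1 to 3. The lowest WT library was replicate 4, and thus the farthest from C2-/-. The change was 1.27 (2.41-fold, SE 0.16, limma adjusted p = 0.000428) and 2.22 after the GC correction (limma adjusted p = 0.000374), at a GC content of 54.6%. *Bag6*, a triage factor for membrane and mislocalized proteins, stood at 7.84, 7.94, 7.97 and 7.08 in WT and 6.31, 5.98 and 5.86 in C2-/-. The C2-/- libraries lay below all WT libraries, and WT replicate 4 was the lowest of the latter. Its change was -1.66 (3.16-fold lower, SE 0.23, limma adjusted p = 0.000749), but with 59.9% GC, the highest of the 69 genes, its GC-corrected change was 0.01 (limma adjusted p = 0.962).

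*Bag3*, the scaffold of Z-disc protein clearance, stood at 7.35, 7.19, 7.40 and 7.48 in WT and 6.91, 7.05 and 6.41 in C2-/-. All C2-/- values were below all WT values, and the change of -0.57 (SE 0.18, limma adjusted p = 0.0289) was just under the fold minimum. After the GC correction it was 0.63 and not past the threshold (limma adjusted p = 0.0864), so the direction of *Bag3* depends on that correction. The call of *Bag3* changed with the processing. It was called lower with quantile normalization (-0.75, limma adjusted p = 0.00781), with voom (-0.59, adjusted p = 0.0197) and in 3 of the 7 leave-one-out fits (-0.70 to -0.62). With the correction and WT replicate 4 left out, *Bag3* was called higher (0.77, limma adjusted p = 0.0351), as it was with the correction and the replicate number as a block (limma adjusted p = 0.0179). The change is the same in these fits by construction, because WT replicate 4 is alone in its block. *Bag2* (0.08), *Bag4* (0.62) and *Bag5* (-0.15) did not pass.

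The heat shock factor genes and the heat shock elements were set beside the chaperone genes. *Hsf1*, the main activator of the heat shock response, fell by 1.42 on the log2 scale (limma adjusted p = 0.00143), from 5.71, 5.58, 5.71 and 5.45 in WT to 4.56, 3.73 and 4.29 in C2-/-. *Hsf2* rose by 1.43 (limma adjusted p = 0.000793), from 4.79, 4.86, 4.79 and 4.50 in WT to 6.30, 6.35 and 5.83 in C2-/-, and *Hsf4* was lower (-1.53). With GC-corrected values (12.3% of all genes higher and 8.33% lower) 0 of the 3 factors were called by limma (0 at an unadjusted p under 0.05), with changes of 0.01, 0.46 and 0.30. At least 2 adjoining heat shock units (GAANNTTC or TTCNNGAA) were found in the windows of 15 of the 56 chaperone genes, compared with 17.0% of all genes, and 3 of the 15 were higher and 1 lower, where 20.2% of all genes were higher and 25.0% lower. At least 3 units (GAANNTTCNNGAA or TTCNNGAANNTTC) were found in 4, namely *Hspd1*, *Hspe1*, *Hsph1* and *Dnajb6*, compared with 0.662% of all genes. These counts include the longer runs. Of these 4 genes, *Hspe1* was higher and the others did not pass.

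The sums of some cell type markers differed between the groups, and their part in the chaperone values was not tested. Over all genes, 20.2% were higher and 25.0% lower, or 12.3% and 8.33% after the GC correction. Marker counts such as 1 of 4 or 1 of 5 are near these shares. All 5 fibroblast markers were higher, with a summed level of 453 to 774 CPM in WT and 1513 to 1863 CPM in C2-/-. Summed fast-fibre markers were at 185712 to 217492 CPM in WT and 97158 to 115917 CPM in C2-/-, with 5 of 8 lower, which also shows the fast-fibre character of the tissue. After the GC correction 2 of the 8 were lower, and their median change was 0.05 instead of -1.14. Of the 5 fibroblast markers, 3 were higher after it. The 4 adipocyte markers measured summed to 159 to 365 CPM and 471 to 633 CPM, with 1 of 4 higher. Smooth muscle markers, *Des* included, summed to 3459 to 4300 CPM and 1583 to 2202 CPM, with 2 of 5 lower, and after the GC correction 1 was higher and 0 lower by limma (0 lower at an unadjusted p under 0.05). The slow-fibre, endothelial, macrophage, Schwann cell and satellite cell sums overlapped between the groups, with 1 slow-fibre gene, *Myh7*, at 0 reads in all C2-/- libraries. Of the single markers, before the GC correction, 2 of 5 endothelial, 1 of 5 macrophage and 1 of 5 Schwann cell genes were lower, and 1 of 5 macrophage and 1 of 4 satellite cell genes were higher. Of the 6 slow-fibre genes, 0 were called by limma (0 at an unadjusted p under 0.05, 1 lower by voom). Of the red blood cell markers only *Alas2* was analysed here, and it was lower, at 4.10 to 5.15 CPM in WT and 1.03 to 2.06 CPM in C2-/- (GC-corrected change -0.79, not past the threshold).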

How the data were processed

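Poly(A) RNA from TA muscle of 4 WT and 3 C2-/- mice was sequenced, and groups and replicate numbers came from the sample titles. The authors aligned reads to GRCm38.p6 with HISAT, counted them per gene with featureCounts 1.5.2 and applied TMM scaling in edgeR. The deposited log2 values of 12239 genes were used. A second deposited table holds the authors' limma/voom comparison (fold changes and p-values) and was not used. The gene filter, the treatment of reads that map to several places and the strand setting are not given in the sources used here.

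Each log2 value equalled log2 of a whole number of reads plus 0.5, scaled to 1000000 reads, so reads were recovered (100% of values within 0.01 of a whole number). Totals were 2613277 to 15464499 reads per library, and 3 reads corresponded to 0.195 to 1.12 CPM, which covers counting error only. Of the 69 chaperone genes, 3 had 0 reads in at least 1 library, and all 69 entered the fit.

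The test was limma 3.58.1 (R 4.3.3) with a mean-variance trend on the deposited log2 values, all 7 libraries and genotype as the only term. P-values were two-sided and Benjamini-Hochberg adjusted over all genes. Libraries were taken as separate animals, as the design text implies, although the titles do not say so, and p-values measure the spread between these libraries. GC content came from 1 annotated transcript per gene (12180 genes). The GC correction took out of each library a natural spline on GC (5 degrees of freedom). Self-test data with known changes were used to check the fit. The chaperone genes and the lists of partners and markers were chosen with earlier results of these data known. Values by library are given for 22 listed genes and for up to 2 risen and 2 fallen genes per family with separate groups, plus the most abundant gene of each family (as reads for *Dnajb1* and as summed reads for *Hspa1a* and *Hspa1b*). Other genes past the threshold were named after their values were seen, including *Dnajc12*, *Dnajc13*, *Dnajc14*, *Dnajc15*, *Dnajc25* and *Hspa4l*. Alternatives covered scaling, pseudocount, low-value filter, voom, library weights, GC content, thinned reads, replicate block and left-out libraries. The GC correction without WT replicate 4 was added after seeing the data. RefSeq promoter windows matched 56 of the 69 genes. Python 3.11.15 was used for the rest.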

Additional observations from a re-analysis of the deposited data

Results flagged for a closer look

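Of the 35 chaperone genes examined for a library apart from the other 3 WT libraries, 9 had one (Dixon's test at the 95% level), and it was WT replicate 4 each time. Chance gives about 1 in 20, or 1.75 of 35. WT replicate 4 was above the other WT libraries for *Hspe1* (7.21, others 5.07 to 5.26), *Dnaja1* (6.45, others 5.44 to 5.46), *Hspa4* (7.51, others 7.0 to 7.06), *Dnajb6* (6.67, others 6.23 to 6.27) and *Hspa1b* (2.07, others 0.52 to 0.73). It was below them for *Bag6* (7.08, others 7.84 to 7.97), *Bag1* (7.01, others 7.28 to 7.29), *Cct7* (6.10, others 6.79 to 6.84) and *Hspa14* (2.79, others 3.62 to 3.72). For *Hspe1*, *Hspa4*, *Dnaja1*, *Bag6* and *Cct7* this was the side on which all C2-/- libraries lay, and for *Bag1* and *Hspa14* the opposite side. For *Dnajb6* (5.75 to 6.25 in C2-/-) 2 of the 3 C2-/- libraries lay on the opposite side and 1 among the other WT libraries, and for *Hspa1b* (-0.95 to 2.84) they lay on both sides. WT replicate 4 was also the shallowest WT library (4683853 reads), and the part of depth in these values was not tested.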

How the results depend on the processing

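Without each library in turn, 17 to 25 chaperone genes were higher, 7 to 10 were lower, and the median log2 change was 0.19 to 0.34. The higher count was 11 with the GC correction, 14 with the replicate block and GC correction together, and 17 with the GC correction and no WT replicate 4. The corresponding medians were 0.18, 0.19 and 0.19, compared with 0.34, and the median was 0.50 with median centring. Over all genes, median centring gave 3040 higher and 2594 lower genes, compared with 2473 and 3055, and the GC correction gave 1495 and 1014. With the replicate block 23 chaperone genes were higher and 11 lower. WT replicate 4 is alone in its block. By construction, the block fits therefore give the same changes as the fits without WT replicate 4, with other p-values. They are not a separate check of a change. The deviations of same-numbered libraries from their group means correlated at 0.06, -0.11 and -0.08, and those of differently numbered ones at -0.08 to 0.19. These values cannot exclude a pairing, because the WT means include WT replicate 4, which often stood apart.

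Among 35 genes named by rule, directions turned under the GC correction, the same without WT replicate 4, and the same with the replicate block for *Bag3* (0.63, 0.77 and 0.77), *Dnaja1* (-0.51, -0.34 and -0.34), *Dnajb4* (-0.26, -0.28 and -0.28), *Hsp90ab1* (0.22, 0.29 and 0.29), *Hspa12b* (0.10, 0.026 and 0.026), *Hspa5* (-0.11, -0.12 and -0.12) and *Hspa9* (-0.33, -0.48 and -0.48), for *Bag6* under the correction alone (0.014) and for *Dnajb6* under the last 2 (0.10 and 0.10). *Hspa9* also turned with quantile normalization (-0.23), library quality weights (-0.040) and the replicate block (-0.022). *Hsp90ab1* (0.030) and *Hspd1* (0.15) turned with median centring, and *Hspd1* (0.014) with thinned reads. Without 1 library, the change ranged from -0.12 to 0.10 for *Hspd1*, -0.22 to 0.026 for *Hsp90ab1*, -0.022 (no WT replicate 4) to 0.17 for *Hspa9*, -0.90 to 1.24 for *Hspa1a* and -0.41 to 1.49 for *Hspa1b*. The cause was not tested.

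Outside these 35, the called *Hspa4l* (-0.06), *Hspa13* (-0.41) and *Dnajc19* (-0.47) also turned under the GC correction, and *Dnajb12* (0.67) turned and was then called. Of the 35, 21 had passed, and 10 of these no longer did under the GC correction, 3 of them with the direction reversed. In all, 8 of the 35 reversed under it. *Cct3* lost the fold minimum with median centring (-0.53) and quality weights (-0.57), and *Hspa12b* passed without 3 of the 7 libraries only. *Hspa8*, not called above, was called with median centring (0.73), quality weights (0.64), the replicate block (0.69) and the 3 fits with the GC correction (0.95 to 1.11). Calls were likewise gained by *Cct6a* with median centring (0.62), *Dnaja1* with quality weights (0.64) and the block (0.70), *Dnajb1* with the block (-2.22), and *Bag3* as lower with quantile normalization (-0.75) and voom (-0.59). Low read counts limit *Hspa1a*, *Hspa1b* and *Dnajb1*.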
